A study of Mus musculus with 12 samples.

Results

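The genes described here encode chromatin-modifying enzymes and nucleosome remodellers measured in blood. They were chosen by gene symbol alone, taking the histone acetyltransferases, deacetylases, lysine and arginine methyltransferases, lysine demethylases, DNA methylation enzymes, Polycomb and heterochromatin proteins, SWI/SNF, CHD and ISWI-type remodellers, bromodomain and PHD finger proteins and nuclear receptor coregulators, and 117 of the 8003 genes in the blood table met the rule. All 117 were mRNA genes and all matched a RefSeq gene by gene ID. RefSeq lists 174 protein-coding mouse genes with such symbols. Of the other 57, 1 stands in the table under another symbol, and the remaining genes were not analysed here. None of the 117 is among the 284 genes of the hippocampus table, which is why the comparison is for blood only.

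Chromatin genes act on the packaging of DNA. Acetyltransferases and methyltransferases write marks on histone tails, deacetylases and demethylases remove them, bromodomain, chromodomain and PHD finger proteins read them, and remodellers use ATP to move or evict nucleosomes. In blood leukocytes these proteins set which inflammatory genes can be switched on; the H3K27 demethylase Kdm6b, for example, is known for its part in macrophage responses.

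The blood came from C57BL/6 mice aged 15 months, with 3 mice in the control group (Ctrl 1, 2 and 3) and 3 mice in the *A. muciniphila*-treated group (Akk 1, 2 and 3), 1 library per mouse; they are called controls and treated mice below. The study asked which transcripts of peripheral blood differ after treatment with this mucus-dwelling gut bacterium. The labels call the control mice normal and the treated mice recipients of a membrane protein of *A. muciniphila*, with a duration of 8 weeks under the sample characteristics but 6 weeks under the protocol, whereas the methods of the study describe gavage with the bacterium, so the agent is not certain. In the methods, the animals from which RNA was taken are said not to have been colonized successfully. The sex of each mouse is not in the labels. The values are FPKM, fragment counts divided by transcript length and by the mapped total, given to 2 decimals, and the read depth is unknown.

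The blood table holds the genes that the study selected for differing between the groups, and in 99.5% of its 8003 genes the treated mice had the lower mean. All 117 chromatin genes shared this lower mean. It cannot be told apart from the selection of the table and is given with no test. What can be read is the level of each gene in each mouse and how the chromatin genes stand against the rest of the table. Overlap of the groups and the p-values are affected by the same selection. They are given as description, beside the share over the table where it was computed. One library also stands apart. For 97.9% of the table and for all 117 chromatin genes the highest value was in Ctrl 1. Over the chromatin genes, Ctrl 1 was at a median of 5.64 times the mean of the other 5 libraries. For this reason the main results are given with and without Ctrl 1.

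The chromatin genes were measured at low levels. Their mean FPKM over the 6 libraries ran from 0.04 to 3.38 with a median of 0.557, against a median of 0.45 for the whole table, and 23 of the 117 had a mean of at least 1, a level reached by 29.6% of the table. The median chromatin gene was at 1.68, 0.38 and 0.28 FPKM in Ctrl 1, 2 and 3, and at 0.41, 0.22 and 0.22 FPKM in Akk 1, 2 and 3. Akk 1 thus lay above both Ctrl 2 and Ctrl 3, and apart from Ctrl 1 the groups overlapped. Akk 1 was the highest Akk library for 100 of the 117 chromatin genes (85.5%), against 64.9% of the table. For 53 chromatin genes both Ctrl 2 and Ctrl 3 lay inside the range of the 3 Akk libraries. The share of the whole table was not computed, so this count cannot be read as particular to them. In whole blood, fewer cells of a type and less RNA per cell cannot be told apart.

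**Figure D1:**
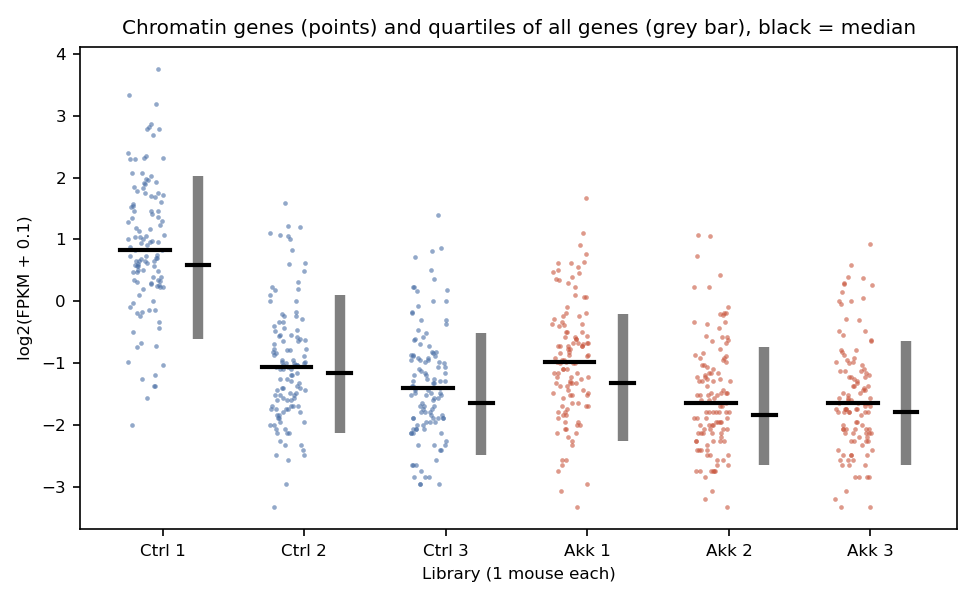
The vertical axis is log2(FPKM + 0.1) and each point is 1 of the 117 chromatin genes in 1 library. The grey bar spans the lower to the upper quartile of the table and black lines are medians. Ctrl 1 stands above the other libraries for the chromatin genes and for the table alike, with a chromatin median of 0.83, while the medians of the other 5 libraries lie between -1.64 and -0.97.

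Group means of log2(FPKM + 0.1) were compared with limma, and p was adjusted over the 8003 genes by the Benjamini-Hochberg method. Adding 0.1 makes differences of low genes look smaller. These genes had been selected for a group difference, so the p-values, adjusted or not, are not those of an unselected list. Past a 1.5-fold difference with an adjusted p no higher than 0.05, 0 chromatin genes were lower and 0 were higher in the Akk group, where the share over the whole table was also 0% in both directions. The smallest adjusted p of any chromatin gene was 0.487. An unadjusted limma p under 0.05 was met by 3 chromatin genes, *Phf11a*, *Phf11d* and *Cbx8*, which is 2.56% against 3.45% of the table. The median log2 difference (Akk minus Ctrl) was -0.83 over the chromatin genes and -0.87 over the table, with the quartiles of the chromatin genes at -0.97 and -0.70. For 114 of the 117 the difference between the group means in FPKM was smaller than the standard deviation of the 3 Ctrl mice. This count follows largely from Ctrl 1, which widened that standard deviation for all 117. The share over the whole table was not computed. For a single gene in this design, 0.1 is the smallest p that an exact permutation test (two-sided) allows.

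Without Ctrl 1, the log2 difference was negative for 89 of the 117 chromatin genes (76.1%), against 81.6% of the table, and positive for 28. The median log2 difference then was -0.15 for the chromatin genes and -0.24 for the table. When Ctrl 1 was left out and each library was set to its own median, 39 chromatin genes (33.3%) were lower in the Akk group, against 48.4% of the table. With all 6 libraries set to their medians, 43 (36.8%) were lower, against 45.1%. On this relative scale the difference was positive for more chromatin genes than it was negative. No chromatin gene passed the adjusted threshold in these settings. Their smallest adjusted p by limma was 0.344 without Ctrl 1, 0.258 when also centred, and 0.157 with all 6 libraries centred. Over the table it was 0.239, 0.043 and 0.010.

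**Figure D2:**
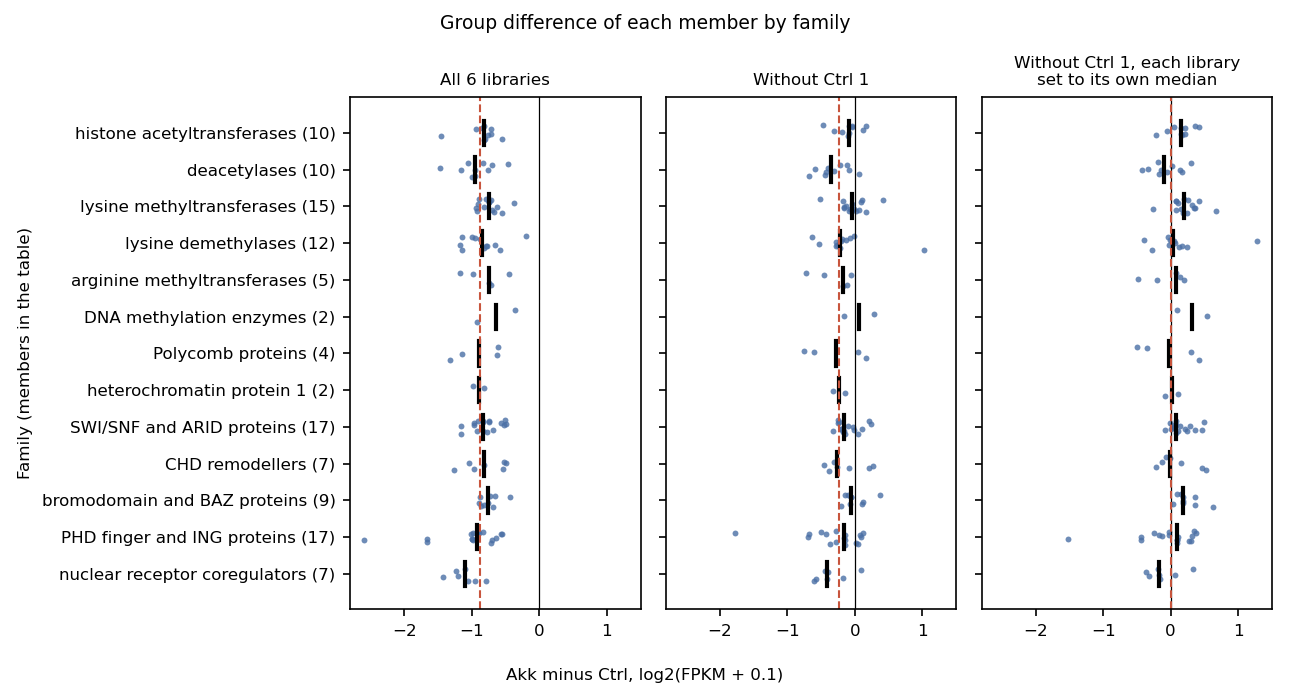
Each point is 1 chromatin gene, placed by its Akk minus Ctrl difference in log2(FPKM + 0.1) and grouped by family, with the number of members in brackets. Black bars are family medians, the dashed red line is the median of all 8003 genes, and the panels use all 6 libraries, 5 libraries without Ctrl 1, and those 5 with each library set to its own median. Family medians run from -1.10 to -0.64 in the first panel against a table median of -0.87. In the last panel the family with the highest median is the DNA methylation enzymes, 2 genes with a median of 0.31, while *Phf11a* on the left and *Kdm6b* on the right stand apart from their families.

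The groups did not overlap for 12 chromatin genes, with every Akk library below every Ctrl library. This was 10.3% of the chromatin genes against 15.4% of the table, so it was not more common among them. None had every Akk library above every Ctrl library. Because Ctrl 1 was the highest library for each chromatin gene, the same 12 genes were found without it (10.3%, against 15.6% of the table). The 12 belong to 6 of the 13 families, among them the nuclear receptor coregulators, and 11 are named here because of their values. Without Akk 1 the count was 59 (50.4%, against 41.8% of the table), and without Ctrl 3 it was 50 (42.7%, against 57.8%).

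**Figure D3:**
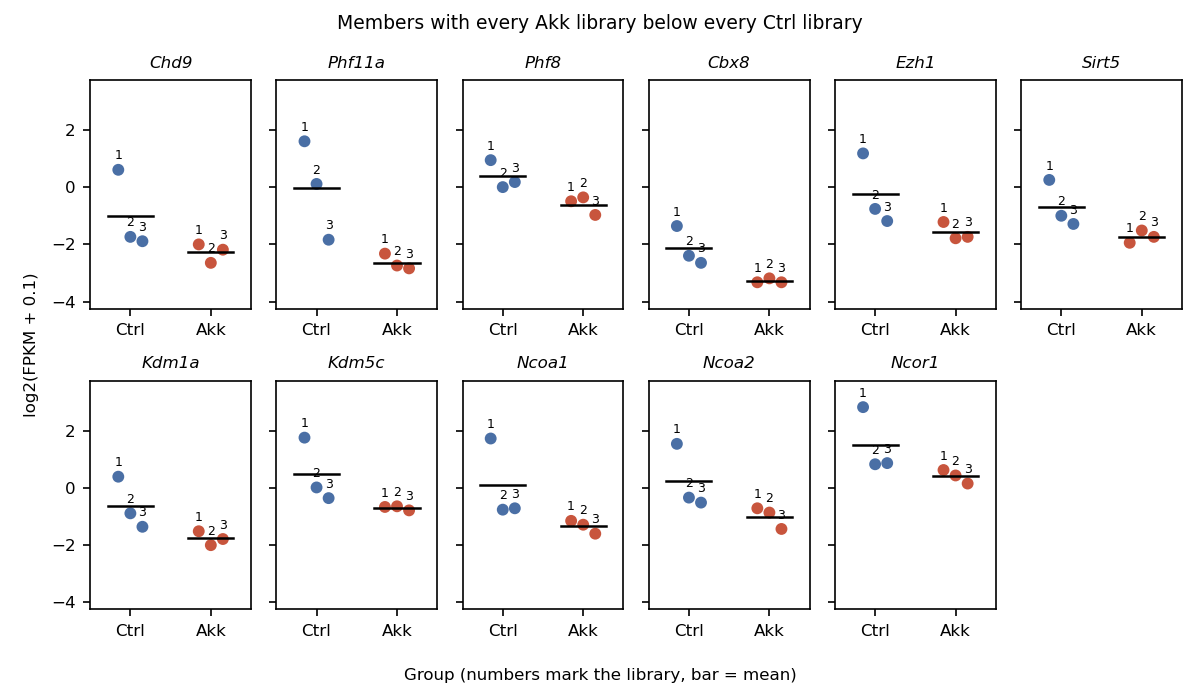
The panels show log2(FPKM + 0.1) of 11 of the chromatin genes whose groups did not overlap, with Ctrl libraries in blue, Akk libraries in red, the library number above each point and a bar at the group mean. In each panel the 3 Akk libraries lie below the 3 Ctrl libraries, and Ctrl 1 is the highest point.

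The nuclear receptor coregulators carry acetyltransferases (the Ncoa proteins) or deacetylase complexes (the Ncor proteins) to nuclear receptors and other transcription factors. The table holds 7 of them, with the lowest family median of the 13, -1.10, and -0.42 without Ctrl 1. *Ncor1*, the nuclear receptor corepressor and the highest gene of the family, was at 6.95, 1.67 and 1.72 FPKM in Ctrl 1, 2 and 3 and at 1.44, 1.25 and 1.01 FPKM in Akk 1, 2 and 3. Its log2 difference was -1.10 (standard error 0.93; adjusted p 0.487 by limma), and without Ctrl 1 it was -0.44. The coactivators *Ncoa1* and *Ncoa2* also had no overlap. *Ncoa1* was at 3.20, 0.49 and 0.51 FPKM against 0.35, 0.31 and 0.23 FPKM, and *Ncoa2* at 2.80, 0.69 and 0.60 FPKM against 0.51, 0.45 and 0.27 FPKM. In these 3 genes Ctrl 2 and Ctrl 3 were close to each other and above all Akk mice by a small margin, and without Ctrl 1 the log2 differences lay between -0.61 and -0.44. *Ncoa3*, *Ncoa5* and *Ncoa6* overlapped, with log2 differences of 0.083, -0.41 and -0.18 without Ctrl 1.

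The PHD finger proteins, many of which read methylated or unmethylated H3K4, and the ING tumour suppressors make up 17 members. This family held the member with the largest difference, *Phf11a*, and 2 of its relatives in the same gene cluster on chromosome 14. The Phf11 genes encode PHD finger proteins known to be induced by interferon. *Phf11a* (chr14:59276913-59297564, GRCm38.p6) was at 2.93, 0.98 and 0.18 FPKM in the controls and at 0.10, 0.05 and 0.04 FPKM in the treated mice. The Akk mice were all low and the Ctrl mice spread widely, from just above the Akk range to far above it. The log2 difference was -2.59 (standard error 0.88; adjusted p 0.487 by limma). Without Ctrl 1 it was -1.77, with an adjusted p of 0.683, and relative to the library medians it was -1.68 with all libraries and -1.52 without Ctrl 1, with adjusted p of 0.157 and 0.27. The value also moved with the constant added before the logarithm, to -0.98 with 1 and -3.57 with 0.01.

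*Phf11b* was the highest of all 117 chromatin genes, at 13.39, 2.92 and 0.91 FPKM in the controls and 1.44, 0.76 and 0.87 FPKM in the treated mice. Here Akk 1 lay above Ctrl 3, so the groups overlapped, and the log2 difference of -1.67 (standard error 0.93) had an adjusted p of 0.487 by limma. *Phf11d* was at 2.25, 0.24 and 0.03 FPKM against 0.07, 0.02 and 0.06 FPKM, and it too overlapped, since Ctrl 3 fell within the Akk range. Ctrl 3 was thus the lowest control for all 3 genes. *Phf11a* and *Phf11b* may not be separate measurements. At an identity of at least 95%, 63.8% of the longest *Phf11a* transcript is found in *Phf11b* and 73% of that of *Phf11b* in *Phf11a*, and reads could be split between these 2 genes in counting. At an identity of at least 90%, *Phf11d* covered 51.3% of the *Phf11a* transcript.

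The rest of the PHD finger and ING family was closer to the table. *Phf8*, an X-linked demethylase of H3K9 and H4K20, was at 1.82, 0.90 and 1.03 FPKM in the controls and 0.61, 0.68 and 0.41 FPKM in the treated mice, without overlap. The *Phf8* log2 difference was -0.98 with all libraries and -0.70 without Ctrl 1. *Phf6*, also X-linked and known as a leukaemia tumour suppressor, overlapped, at 0.61, 0.10 and 0.14 FPKM against 0.30, 0.06 and 0.07 FPKM.

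The lysine demethylases, 12 genes, included the gene that went furthest against the table. *Kdm6b* removes the repressive H3K27 methyl mark and was at 5.17, 0.27 and 0.38 FPKM in Ctrl 1, 2 and 3 and at 1.08, 0.64 and 0.62 FPKM in Akk 1, 2 and 3. The Akk mice all lay above Ctrl 2 and Ctrl 3 and far below Ctrl 1. The log2 difference was accordingly -0.19 (standard error 0.92) with all libraries and 1.02 (standard error 0.39) without Ctrl 1, with an adjusted p of 0.871 by limma. Relative to the library medians it was 0.72 with all libraries and 1.27 without Ctrl 1, and the adjusted p of the latter was 0.258. The sign of the *Kdm6b* difference thus turned both when Ctrl 1 was left out and when the libraries were centred. *Kdm6b* and *Setd1a* were the 2 chromatin genes (1.71%, against 0.962% of the table) with every Akk library above the 2 remaining Ctrl libraries. For *Setd1a* the nearest Akk and Ctrl values were apart by no more than the rounding step.

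Its X-linked relative *Kdm6a* did not follow it, at 1.29, 0.32 and 0.30 FPKM in the controls and 0.35, 0.23 and 0.19 FPKM in the treated mice, a log2 difference of -0.81 and -0.23 without Ctrl 1. *Kdm5c*, an X-linked demethylase of H3K4, was at 3.27, 0.91 and 0.68 FPKM against 0.53, 0.54 and 0.48 FPKM. Its Akk values lay in a narrow range below all controls. *Kdm1a*, the flavin-dependent demethylase LSD1 of the CoREST complex, was at 1.21, 0.44 and 0.29 FPKM against 0.25, 0.15 and 0.19 FPKM, also without overlap. Of the 12 demethylases, 11 had a negative log2 difference without Ctrl 1, and *Kdm6b* was the exception.

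The lysine methyltransferases, 15 genes of the Kmt and Setd names, had no member without overlap, and a family median of -0.75, or -0.05 without Ctrl 1. *Setd3*, known mainly as the histidine methyltransferase of actin, was the highest, at 7.22, 2.23 and 1.66 FPKM in the controls and 2.04, 2.01 and 1.41 FPKM in the treated mice. *Kmt2e*, a member of the MLL family, was at 4.81, 0.72 and 0.71 FPKM against 1.28, 0.58 and 0.40 FPKM. In both genes Akk 1 lay among or above Ctrl 2 and Ctrl 3. *Setd1a*, the catalytic subunit of a COMPASS complex that methylates H3K4, was at 1.14, 0.16 and 0.13 FPKM against 0.30, 0.17 and 0.22 FPKM. The log2 difference was -0.37 and became 0.41 without Ctrl 1. Akk 2 stood above Ctrl 2 by the rounding step alone, at 0.17 against 0.16 FPKM. Its exons share 51.8% of their bases with an overlapping gene model on the same strand, so its value is uncertain.

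Among the enzymes of lysine acetylation, the 10 acetyltransferases had a median log2 difference of -0.81 and the 10 deacetylases of -0.95. Without Ctrl 1 these were -0.09 and -0.35. *Ep300*, the p300 coactivator, was at 4.11, 0.38 and 0.44 FPKM in the controls and 0.68, 0.35 and 0.43 FPKM in the treated mice, so Ctrl 2 and Ctrl 3 lay within the Akk range. *Kat6a*, the MOZ acetyltransferase of blood stem cells, was at 3.82, 0.40 and 0.42 FPKM against 0.47, 0.19 and 0.20 FPKM, and only Akk 1 overlapped the controls. *Hdac5*, a class IIa deacetylase, was the highest deacetylase and at 9.97, 2.2 and 1.55 FPKM against 0.98, 1.57 and 0.90 FPKM. Here Akk 2 and not Akk 1 was the highest Akk library, just above Ctrl 3, and the log2 difference was -1.47 (standard error 0.93; adjusted p 0.487 by limma) and -0.68 without Ctrl 1. *Sirt5*, the mitochondrial desuccinylase, was the deacetylase-family gene without overlap, at 1.09, 0.40 and 0.31 FPKM against 0.16, 0.25 and 0.20 FPKM.

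The Polycomb proteins, which place and read H3K27 methylation, numbered 4. *Ezh1*, the methyltransferase of resting cells, was at 2.16, 0.49 and 0.34 FPKM in the controls and 0.33, 0.19 and 0.20 FPKM in the treated mice, with no overlap but with Akk 1 next to Ctrl 3. *Eed*, its core partner, did overlap, at 1.98, 0.39 and 0.25 FPKM against 0.58, 0.27 and 0.30 FPKM. *Cbx8*, a chromodomain reader, was at 0.29, 0.09 and 0.06 FPKM in the controls and listed at 0, 0.01 and 0 FPKM in the treated mice. At this level, a few times the rounding step of the table, its log2 difference of -1.14 depends on the constant added, being -0.19 with 1 and -3.35 with 0.01. The heterochromatin protein 1 genes *Cbx3* and *Cbx5* both overlapped. *Cbx3*, the higher, was at 4.09, 1.14 and 0.79 FPKM against 1.13, 0.57 and 0.94 FPKM.

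The remodellers gave few differences from the table. The SWI/SNF and ARID proteins, 17 genes, had a median of -0.83 and no member without overlap. *Smarcd2*, a SWI/SNF subunit needed for neutrophil granule formation, was at 6.36, 1.42 and 0.85 FPKM in the controls and 1.37, 0.69 and 1.10 FPKM in the treated mice. *Arid1a*, a large DNA-binding subunit of the same complex, was at 5.01, 0.75 and 0.91 FPKM against 0.95, 0.77 and 0.55 FPKM. *Arid5a*, an RNA-binding protein known to stabilise the Il6 transcript, was at 3.26, 0.41 and 0.27 FPKM against 0.40, 0.53 and 0.33 FPKM. For *Arid5a* Ctrl 2 lay within the Akk range and Ctrl 3 below it, with a log2 difference of -0.74 (standard error 0.92; adjusted p 0.494 by limma) and 0.24 without Ctrl 1. Of the 7 CHD remodellers, *Chd4*, the ATPase of the NuRD complex, was the highest, at 4.90, 1.07 and 1.08 FPKM against 1.21, 0.78 and 0.71 FPKM. *Chd9* had no overlap, at 1.42, 0.20 and 0.17 FPKM against 0.15, 0.06 and 0.12 FPKM.

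The bromodomain and BAZ proteins, 9 genes, had a median of -0.76, or -0.06 without Ctrl 1. *Brd2*, a BET protein that binds acetylated histones, was at 9.0, 2.0 and 1.07 FPKM in the controls and 3.08, 1.07 and 1.22 FPKM in the treated mice, and Akk 1 exceeded Ctrl 2. The DNA methylation enzymes numbered 2. *Dnmt3a*, a de novo methyltransferase, was at 1.08, 0.16 and 0.13 FPKM against 0.14, 0.09 and 0.13 FPKM. *Tet2*, which oxidises methylcytosine, was at 0.53, 0.08 and 0.05 FPKM against 0.15, 0.07 and 0.09 FPKM. Both genes thus overlapped. The 5 arginine methyltransferases overlapped as well. *Prmt2*, the highest of them, was at 2.10, 0.37 and 0.25 FPKM against 0.33, 0.23 and 0.23 FPKM.

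**Figure D4:**
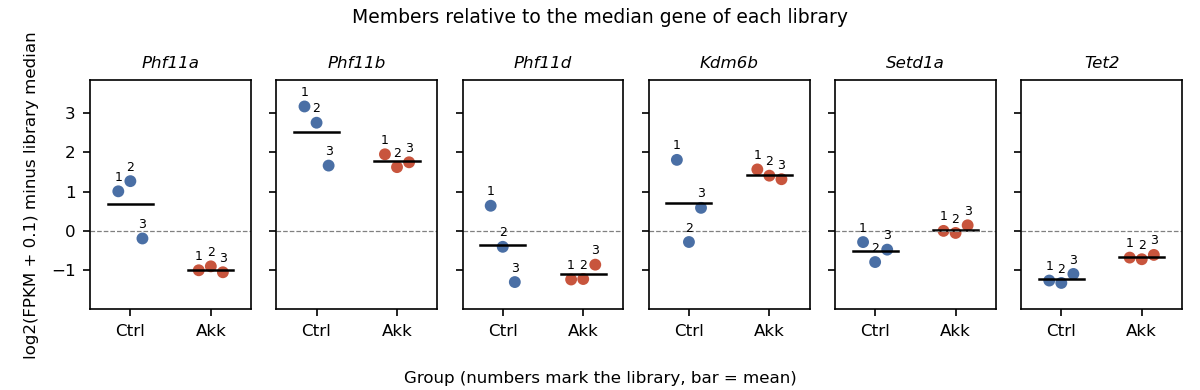
The panels show log2(FPKM + 0.1) of 6 chromatin genes minus the median of all 8003 genes in the same library, so the dashed line at 0 is the middle gene of each library, and the library number stands above each point. *Phf11a* lies between -0.19 and 1.26 in the Ctrl libraries and between -1.05 and -0.90 in the Akk libraries, *Setd1a* and *Tet2* are higher in all Akk libraries, and *Kdm6b* in Ctrl 1, at 1.80, is above all Akk libraries.

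The scale by library median changes the order of some genes. On that scale *Setd1a* lay between -0.79 and -0.28 in the Ctrl libraries and between -0.05 and 0.14 in the Akk libraries, a difference of 0.55. *Tet2* lay between -1.32 and -1.09 against -0.72 and -0.61, a difference of 0.56. In both genes the Akk libraries were above all 3 Ctrl libraries, Ctrl 1 included, whereas on the unscaled values both were lower in the Akk group. This pattern was met by 5 chromatin genes (4.27%), against 4.01% of the table, so it was about as common among them. *Setd1a* and *Tet2* were chosen for it after their values were seen, and neither passed the adjusted threshold. Outside Ctrl 1 the *Tet2* values and the lower *Setd1a* values lay near the added 0.1 FPKM, so their gaps on this scale depend in part on that constant.

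Partners of these enzymes that the symbol rule does not catch were taken from lists of complex members and other chromatin factors. Of 117 listed partners 81 were in the table, among them 16 of 20 Polycomb partners, 6 of 10 COMPASS and MLL partners, 14 of 19 NuRD, Sin3 and CoREST partners and 9 of 12 SWI/SNF partners. By limma 0 of the 81 passed the thresholds in either direction and 0 had an unadjusted p under 0.05. Their median log2 difference was -0.81, or -0.14 without Ctrl 1, close to the -0.83 and -0.15 of the chromatin genes. The groups did not overlap for 5 of the 81 (6.17%), with the Akk libraries lower, against 15.4% of the table.

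Blood is a mixture of cells. The marker genes of the table, too, had their highest sums in Ctrl 1. The median log2 difference was -1.62 for the neutrophil markers, -1.75 for the monocyte markers and -1.27 for the platelet markers, and without Ctrl 1 it was -0.64, -0.71 and -0.40, against -0.83 and -0.15 for the chromatin genes. For the T cell markers the median was -1.24, or -0.89 without Ctrl 1, and for the B cell markers -0.66, or -0.10. After centring by library median, the neutrophil and monocyte values were -0.70 and -0.84, against 0.086 for the chromatin genes. The platelet, T cell and B cell values were then -0.36, -0.32 and 0.25. The summed FPKM of 10 of 10 neutrophil markers was between 260 and 1401 in the Ctrl mice and between 144 and 367 in the Akk mice. For 7 of 8 monocyte markers it was between 72.2 and 967 against 75.3 and 124, and for 8 of 8 platelet markers between 359 and 3534 against 420 and 524. For 6 of 10 T cell markers it was between 7.22 and 16.8 against 2.07 and 7.78, and for 2 of 8 B cell markers between 2.76 and 12.9 against 2.17 and 6.02. None of the 10 red cell markers is among the genes used here. Akk 1, the highest Akk library for most chromatin genes, had the lowest neutrophil and platelet sums of the Akk mice, 144 and 420. It had the highest T cell, B cell and monocyte sums of these mice. The monocyte sum, 124, was only just above that of Akk 3. The part of cell composition in the values of the chromatin genes was not tested.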

How the data were processed

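RNA from blood was sequenced for 3 control and 3 *A. muciniphila*-treated mice. The authors deposited FPKM, 1 column per mouse, for the genes they selected as changed. According to the study's methods, reads were mapped with HISAT2 and Bowtie2 and quantified with RSEM on the BGISEQ-500, whereas the submitters' processing notes name TopHat2, Cufflinks and GRCm38, so the tool behind the values is not certain, and strand-specific counting is not given in the sources used here. Samples were grouped by their labels. The labels number both groups 1 to 3, and these numbers mark different mice.

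From the deposited FPKM, log2(FPKM + 0.1) was fitted with limma 3.58.1 (R 4.3.3), with an intensity trend, no scaling between libraries, and Benjamini-Hochberg adjustment over all 8003 blood genes. The fit was tested on simulated data with independent noise for each gene. That test does not cover a shift of a whole library such as that of Ctrl 1. Without read counts no depth can be given, so precision is set by how many mice there were. P-values of the main fit rest on the spread between these mice, pooled by the trend over genes of similar level. They do not measure the spread of each gene alone. *Kdm6b* and *Ncoa1*, for example, both had a standard error of 0.92. Ctrl 1 is part of that spread, and without it the standard error of *Kdm6b* was 0.39. The members, families and lists were chosen with earlier results of these data known. Genes named are, in each family, the one with the highest mean FPKM and, among means of at least 1, the one with the largest log2 difference, plus any with an unadjusted p under 0.05 at that level, a mean of at least 10 or a higher mean in the Akk group, *Arid5a*, and sex-linked members. *Phf11a*, *Phf11d*, *Cbx8*, *Setd1a*, *Tet2*, *Kat6a* and genes without overlap were chosen after their values were seen. Alternatives were pseudocounts of 1 and 0.01, only genes averaging at least 1 FPKM, each library centred on its median or quantile-normalized, no trend, a replicate block, and each library left out. Some results are not reported. Gene positions came from RefSeq (GRCm38.p6) and transcripts from GENCODE vM21, compared with blastn 2.17.0. Python 3.11.15, pandas 2.3.3, numpy 2.4.6 and matplotlib 3.10.9 were used.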

Additional observations from a re-analysis of the deposited data

How the results depend on the processing

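No chromatin gene passed the adjusted threshold by limma in any alternative, the smallest adjusted p being 0.057 without Ctrl 3. Genes elsewhere in the table went lower. Their smallest adjusted p by limma was 0.0013 without Ctrl 3, 0.010 with centring and 0.014 with a pseudocount of 0.01. It was 0.033 with the replicate block and 0.043 with centring without Ctrl 1. The share of the table that passed in the alternatives was not computed. Sizes moved: the median log2 difference was -0.38 with a pseudocount of 1, -0.15 without Ctrl 1 and -1.25 without Ctrl 3. The log2 differences of 32 genes named above kept their sign with pseudocounts of 1 and 0.01 and without Ctrl 2, Ctrl 3 or any Akk library. All of these settings keep Ctrl 1. Leaving out the trend or adding the replicate block cannot change a log2 difference, so neither says anything about the sign. The replicate block left the count at an unadjusted p under 0.05 at 3 (2.56%, against 7.38% of the table, up from 3.45%); same-numbered mice did not deviate together (correlations 0.036, -0.011 and -0.096), and they are different mice. Leaving out 1 library at a time gave counts at an unadjusted p under 0.05 from 1 (Akk 1 or Akk 3; 0.855%, against 1.11% and 0.85% of the table) to 8 (Ctrl 3; 6.84%, against 20.1%) and counts without overlap from 12 to 59. With a mean FPKM of at least 1, which keeps 23 chromatin genes, 0 had an unadjusted p under 0.05 (72 of 2366 in the table). Of the 23, 2 had no overlap (8.7%, against 20.1% of the table at that level). The median of the 23 lay 0.26 above that of the table. With a pseudocount of 0.01 the median of all chromatin genes lay 0.16 above it, against 0.04 in the main fit. Centring, quantile normalization, and centring without Ctrl 1 moved the median log2 difference to 0.086, 0.13 and 0.098, and the first 2 each left 3 genes with every Akk library below (2.56%, against 4.44% and 3.51% of the table), with 5 (4.27%, against 4.01%) and 8 (6.84%, against 4.95%) above.

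These settings take out the level of each library, and signs of uncalled differences then turned. Over the 6 single-library omissions the values ran from -1.35 to 0.24 for *Arid5a*, -1.36 to 0.12 for *Brd2*, -1.12 to 0.17 for *Eed*, -1.40 to 0.17 for *Ep300*, -0.89 to 1.02 for *Kdm6b*, -0.98 to 0.016 for *Phf6*, -0.80 to 0.41 for *Setd1a* and -0.75 to 0.29 for *Tet2*, in each case positive without Ctrl 1. Centring gave *Tet2* 0.56, *Phf6* 0.37, *Eed* 0.31, *Arid5a* 0.17, *Smarcd2* 5.47e-05, *Brd2* 0.19, *Cbx3* 0.10, *Ep300* 0.064, *Kdm6a* 0.10, *Kdm6b* 0.72, *Setd1a* 0.55 and *Setd3* 0.20. Quantile normalization gave *Chd4* 0.15, *Tet2* 0.46, *Phf6* 0.22, *Phf8* 0.032, *Eed* 0.38, *Arid1a* 0.13, *Arid5a* 0.29, *Smarcd2* 0.21, *Brd2* 0.43, *Cbx3* 0.27, *Ep300* 0.19, *Kdm6a* 0.10, *Kdm6b* 0.89, *Kmt2e* 0.17, *Setd1a* 0.56, *Setd3* 0.43 and *Ncor1* 0.0066. Centring without Ctrl 1 gave *Dnmt3a* 0.090, *Tet2* 0.54, *Phf6* 0.27, *Eed* 0.42, *Arid1a* 0.11, *Arid5a* 0.49, *Smarcd2* 0.14, *Prmt2* 0.080, *Brd2* 0.37, *Cbx3* 0.10, *Ep300* 0.42, *Kdm6a* 0.024, *Kdm6b* 1.27, *Kmt2e* 0.18, *Setd1a* 0.66 and *Setd3* 0.16. The depth is unknown, and most values lie under 1 FPKM in 5 of the 6 libraries.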
